A study of Arabidopsis with 12 samples.

Results

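Class III peroxidases are secreted heme enzymes of plants that use hydrogen peroxide to oxidise phenolic and other substrates in the cell wall. Depending on substrate and site they cross-link wall polymers and polymerise lignin, which stiffens the wall, or release reactive oxygen species that loosen it. The family is large in *Arabidopsis thaliana* and is best known from roots, where members act in elongation, root hair growth and the lignified Casparian strip of the endodermis. Abscisic acid (ABA), the hormone of drought and seed responses, restrains seedling growth. The genes described here are the 67 of 33559 genes in the deposited expression table whose description holds the phrase "Peroxidase superfamily protein". The phrase fits 66 of them. The remaining gene, *DOX1* (AT3G01420), is named alpha-dioxygenase 1 in the RefSeq annotation, an enzyme that oxygenates fatty acids, and it is not a class III peroxidase. It is kept among the 67 because the phrase takes it in, and the main counts of each comparison are also given without it.

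The table gives 1 FPKM value per gene, an abundance corrected for gene length and library size, for each of 4 groups of whole seedlings at 14 days: untreated wild type (Col-0, WT in the plots), untreated *aph-1*, and both genotypes after ABA for 6 h (labelled 50 micromole, read here as μM). The untreated groups are called control. The *aph-1* line (Salk_120974) is a single T-DNA line with the insertion in the promoter of *APH*, which encodes a low molecular weight tyrosine phosphatase, and the study describes a fused transcript of T-DNA and *APH* in it. Each group has 3 libraries by the sample labels, but their values are merged into 1, so no SD, standard error or p-value can be given and every difference below is a description without a replicate check. Differences are log2 ratios after adding 0.1 FPKM to both values, on which 1 or −1 is a 2-fold difference, and the added 0.1 understates the change of genes at low levels. Counts cover genes with a mean of at least 1 FPKM over the 4 groups, a filter passed by 52 of the 67 peroxidase genes and by 19647 genes in all. *APH* (AT3G44620) was at 95.9 FPKM in control Col-0, 83.6 in control *aph-1*, 99.0 in ABA-treated Col-0 and 86.9 in ABA-treated *aph-1*, and with a fused transcript this whole-gene level does not check the genotype. Both root and leaf cells were represented, since 5 of 8 root markers and 8 of 8 leaf markers were at 1 FPKM or more in every group and none was listed at 0.

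Over the 4 groups, 8 genes had a mean of 100 FPKM or more, 31 were between 10 and 100, 13 between 1 and 10 and 13 under 1, and 2 genes, AT1G24110 and AT1G77100, were listed at 0 in every group. *PRXR1* (AT4G21960) stood far above the others, at 1958 FPKM in control Col-0 and 1895 in control *aph-1*, and at 1231 and 1239 after ABA. It alone made up 38.0% of the summed FPKM of all 67 genes in control Col-0 and 32.8% after ABA. The next most abundant gene of control Col-0, AT3G32980, was at 462 FPKM there, 385 in control *aph-1*, 180 in ABA-treated Col-0 and 181 in ABA-treated *aph-1*. AT1G71695 was at 269, 247, 199 and 213 FPKM in the same order of groups. AT2G38380 was at 218, 155, 163 and 169 FPKM, and AT4G37520 at 95.5, 77.8, 111 and 119 FPKM. Of the genes named so far in this paragraph, only AT3G32980 was past 2-fold with ABA. Among all 8 genes with a mean of 100 FPKM or more, 1 was at least 2-fold higher after ABA in Col-0 and 3 were lower. The higher one was *DOX1*, and the lower ones were AT3G32980, AT2G37130 and *PRX71* (AT5G64120). Of all genes above the filter, whatever their level, 11.5% were higher and 12.2% lower. The share of higher genes among the 8 was thus near that of all genes. The order of these levels comes from single values, so the spread that would separate neighbours in it is not known. The 67 genes together made up 0.471% of the summed FPKM of all genes in control Col-0, 0.453% in control *aph-1*, 0.335% in ABA-treated Col-0 and 0.344% in ABA-treated *aph-1*. Their summed level was 5150 and 4656 FPKM without ABA and 3749 and 3833 with it, Col-0 first. These sums leave out the class III genes outside the phrase, given below.

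**Figure D1:**
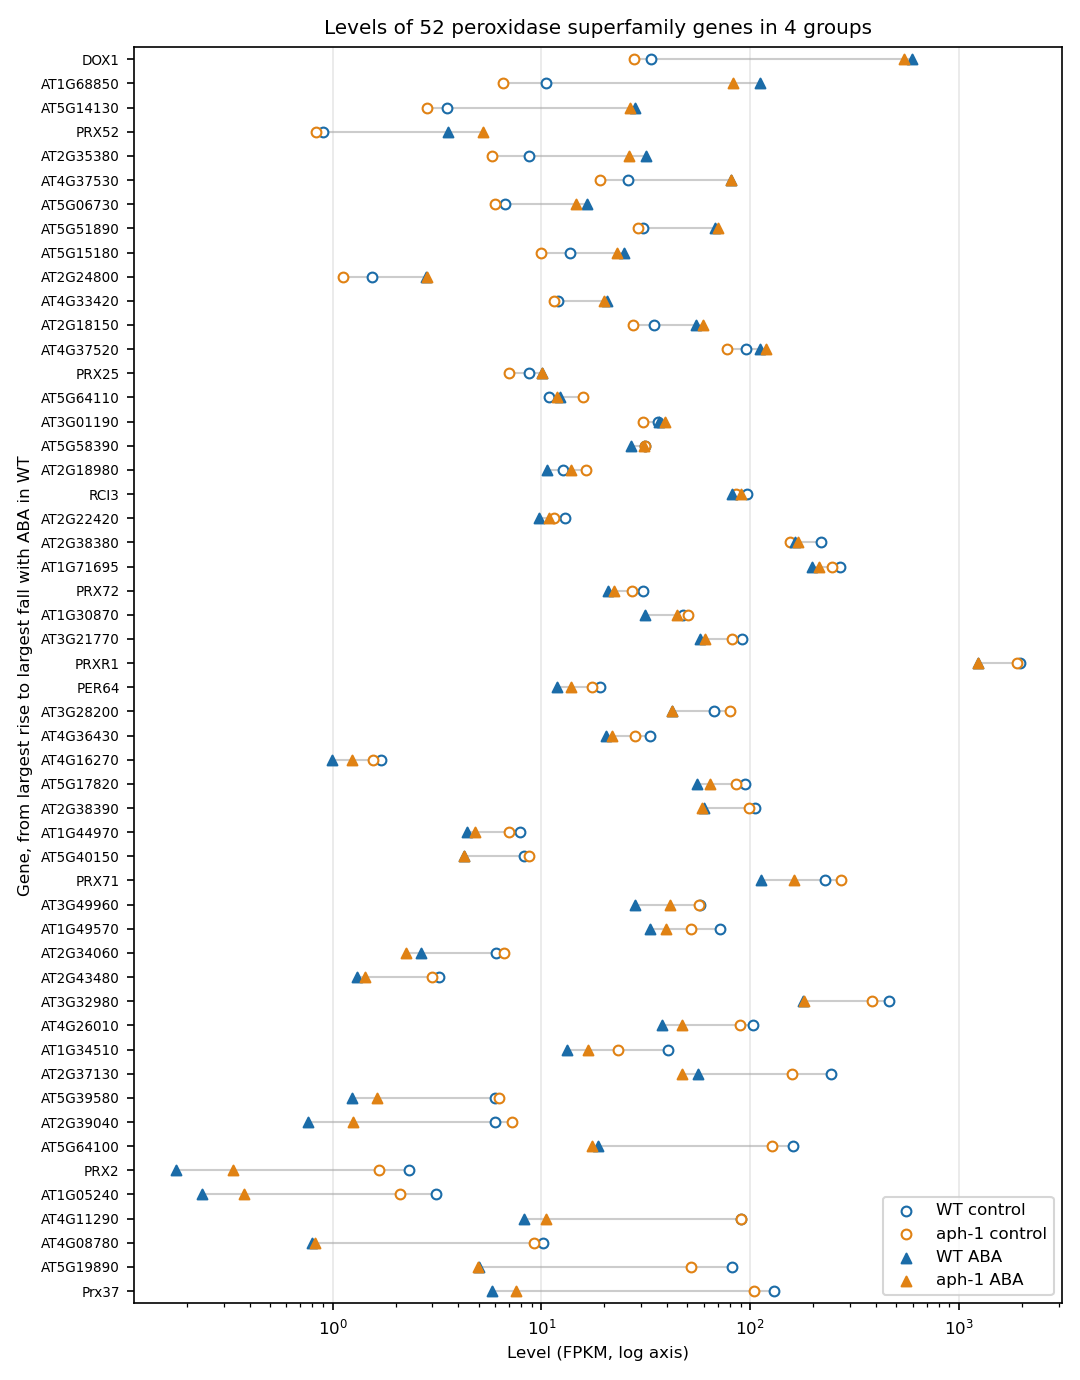
Levels of the 52 peroxidase superfamily genes that passed the filter, 1 row per gene, with FPKM on a log axis; circles are untreated groups, triangles ABA-treated groups, blue Col-0 and orange *aph-1*, and each symbol is the authors' single value for a group. Genes are ordered by the log2 ratio of ABA to control in Col-0, and the circles and triangles are far apart at the top (*DOX1*, AT1G68850) and at the bottom (*Prx37*, AT5G19890) while the 2 colours lie close together throughout.

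ABA treatment went with lower levels of many peroxidase genes in Col-0. Of the 52 genes, 18 (34.6%) were at least 2-fold lower after ABA, where 12.2% of all genes above the filter were, and 8 (15.4%) were at least 2-fold higher, where 11.5% of all genes were. Without *DOX1* the counts were 18 lower and 7 higher of 51. The median log2 ratio was −0.67 over the 52 genes and 0.00 over all genes, and 36 of the 52 were below 0. Lower genes were found at every level of abundance above the filter. They were 7 of the 13 genes between 1 and 10 FPKM, 8 of the 31 between 10 and 100 and 3 of the 8 at 100 or more. The share of all genes within each of these levels was not computed, so the levels cannot be set against it.

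*Prx37* (AT4G08770), a peroxidase whose overexpression dwarfs plants, had the lowest ratio. It was at 131 FPKM in control Col-0 and 104 in control *aph-1*, and at 5.77 and 7.52 after ABA, a log2 ratio of −4.48 in Col-0 and −3.77 in *aph-1*. AT5G19890 was at 81.6 (Col-0) and 52.0 FPKM (*aph-1*) in control seedlings, against 5.01 and 4.95 under ABA, a log2 ratio of −4.00 in Col-0. In both genotypes the treated values of these genes were far below the control values. AT4G11290 was at 90.3 (Col-0) and 89.9 FPKM (*aph-1*) in control seedlings, against 8.21 and 10.6 under ABA. AT5G64100 was at 161 (Col-0) and 128 FPKM (*aph-1*) in control seedlings, against 18.7 and 17.5 under ABA. AT2G37130, one of the most abundant genes of control Col-0, was at 244 (Col-0) and 159 FPKM (*aph-1*) in control seedlings, against 56.4 and 47.3 under ABA. These 3 genes, with log2 ratios in Col-0 of −3.44, −3.10 and −2.11, were thus abundant in control seedlings.

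Some of the other lower genes were at low levels. AT1G05240 was at 3.12 FPKM in control Col-0 and 0.238 after ABA, and *PRX2* (AT1G05250), a peroxidase with a part in stem lignin, was at 2.32 and 0.178 FPKM. AT4G08780 was at 10.2 and 0.793 FPKM, AT2G39040 at 6.01 and 0.759 FPKM and AT5G39580 at 5.99 and 1.24 FPKM. Others were abundant, and AT4G26010, at 103 FPKM in control Col-0, had a log2 ratio of −1.45. *PRX71* (AT5G64120), which strengthens walls and limits growth, was close to the 2-fold line, at 227 FPKM without and 113 FPKM with ABA in Col-0 and at 271 and 162 FPKM in *aph-1*. Its log2 ratio was −1.01 in Col-0 and −0.74 in *aph-1*.

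The 8 higher genes were fewer but reached large ratios. *DOX1* had the largest, from 33.5 to 594 FPKM in Col-0 and from 27.8 to 547 in *aph-1*, log2 ratios of 4.15 and 4.29. Among class III genes AT1G68850 was first, at 10.5 FPKM in control Col-0 and 6.55 in control *aph-1*, and at 112 and 82.7 after ABA, a log2 ratio of 3.40 in Col-0. AT5G14130 was at 3.53 (Col-0) and 2.84 FPKM (*aph-1*) in control seedlings, against 28.0 and 26.7 under ABA. In these genes, too, the untreated values of both genotypes lie far below the treated ones. *PRX52* (AT5G05340), which takes part in lignin formation in stem fibres, was at 0.894 (Col-0) and 0.832 FPKM (*aph-1*) in control seedlings, against 3.57 and 5.26 under ABA. AT2G35380 was at 8.71 (Col-0) and 5.77 FPKM (*aph-1*) in control seedlings, against 31.7 and 26.1 under ABA. AT4G37530, AT5G06730 and AT5G51890 had log2 ratios in Col-0 of 1.63, 1.29 and 1.15. Without *PRXR1* and *DOX1* the other 65 genes summed to 3159 FPKM in control Col-0 and 1923 after ABA.

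Members with a described role in lignified walls differed in their response. *PRX2* and *PRX52*, given above, were past 2-fold in opposite directions, at log2 ratios of −3.12 and 1.88 in Col-0. Each was under 1 FPKM on its low side. *PRX2* was at 0.178 (Col-0) and 0.333 FPKM (*aph-1*) under ABA, and *PRX52* at 0.894 and 0.832 FPKM in control seedlings. The size of both ratios thus depends on the added value. With 1 FPKM added both were smaller in Col-0, though still past 2-fold. *PER64*, *PRX72* and *PRX25* were within 2-fold. *PER64* (AT5G42180), a peroxidase of the Casparian strip, was at 19.1 FPKM in control Col-0, 17.6 in control *aph-1*, 11.9 in ABA-treated Col-0 and 13.9 in ABA-treated *aph-1*. *PRX72* (AT5G66390), needed for normal stem lignin, was at 30.6, 27.2, 20.8 and 22.2 FPKM in that order. *PRX25* (AT2G41480), also linked to stem lignin, was at 8.71, 7.02, 10.01 and 10.02 FPKM. Among other named members, *RCI3* (AT1G05260), a cold-inducible peroxidase, was at 96.9, 85.2, 81.4 and 90.7 FPKM. *PER64*, *PRX72* and *PRX25* were chosen for their annotation, after their values were seen. For these 4 genes the log2 ratio of ABA to control in Col-0 lay between −0.67 and 0.20.

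In *aph-1*, ABA treatment went with a similar pattern. Of the 52 genes, 14 (26.9%) were at least 2-fold lower, where 10.1% of all genes were, and 11 (21.2%) were at least 2-fold higher, where 11.8% of all genes were, and the median log2 ratio was −0.38 against −0.01. Without *DOX1* the higher genes were 10 of 51. All 8 genes higher in Col-0 were higher in *aph-1*, where 89.4% of all genes higher in Col-0 were. Of the 18 lower ones, 13 (72.2%) were lower in *aph-1*, where 72.5% of all such genes were. The shared genes made up 8 of the 11 higher and 13 of the 14 lower in *aph-1*, and no peroxidase gene was past 2-fold in opposite directions. Across the 52 genes the log2 ratios of the 2 genotypes, which share no libraries, were close, with Pearson r = 0.985 and Spearman rho = 0.965, against 0.928 and 0.921 across all genes above the filter; genes are not independent replicates.

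The genes that were lower in Col-0 only were AT1G34510, AT1G49570, AT3G49960, AT4G26010 and *PRX71*, and all were also below control in *aph-1*, by log2 ratios of −0.91 to −0.40. AT5G40150 was past 2-fold in *aph-1* only, at −1.01 against −0.94 in Col-0. The genes past 2-fold upward in *aph-1* only were AT2G18150, AT2G24800 and AT5G15180, with log2 ratios of 1.12, 1.27 and 1.20 in *aph-1* and of 0.66, 0.82 and 0.86 in Col-0. All 9 genes had the same sign in both genotypes, and a difference between the genotypes could not be tested for any of them.

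**Figure D2:**
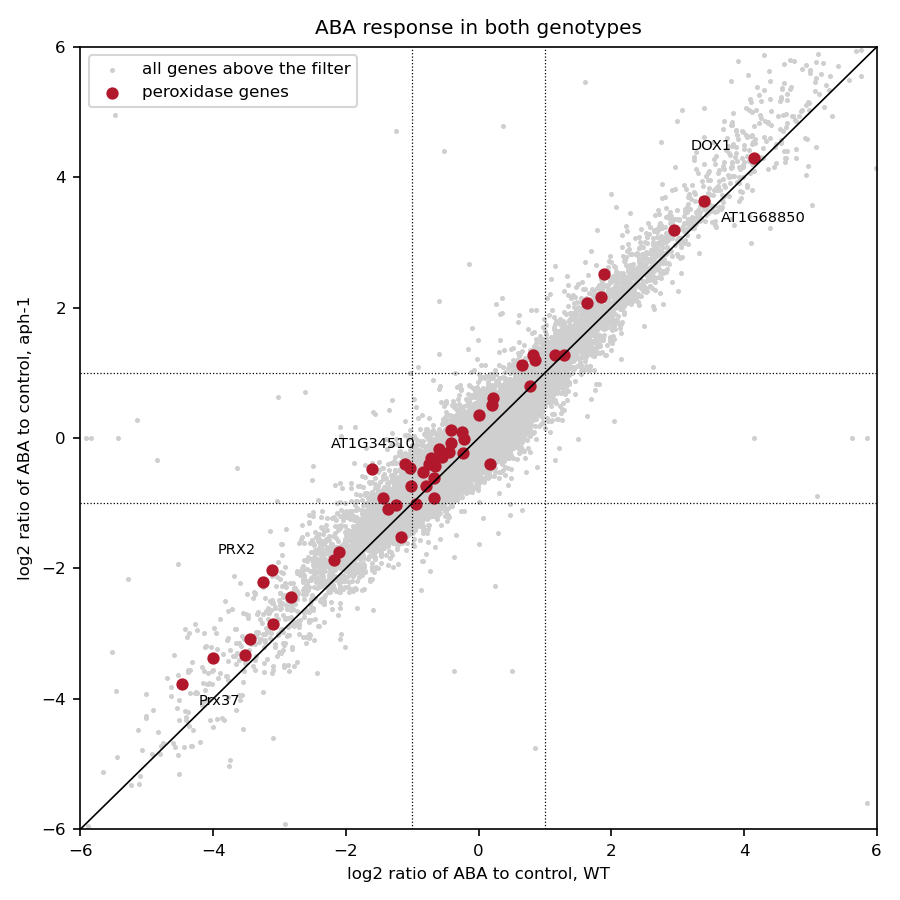
Log2 ratio of ABA to control in Col-0 (x axis) against that in *aph-1* (y axis), with 0.1 FPKM added; red points are the 52 peroxidase superfamily genes, grey points all genes above the filter within ±6 on both axes, dotted lines mark 2-fold and the solid line equal ratios. Of the red points, 47 lie above the solid line, at both ends of the range, with AT1G34510 farthest from it.

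The log2 ratio of ABA to control was larger, that is less negative or more positive, in *aph-1* than in Col-0 for 47 of the 52 genes (90.4%), where it was so for 55.0% of all genes. Without *DOX1* it was 46 of 51. The median difference of the log2 ratios, *aph-1* minus Col-0, was 0.32 over the 52 genes and 0.03 over all genes, with quartiles of 0.21 and 0.43 over the 52 and of −0.16 and 0.22 over all genes. The Col-0 ratio enters this difference, so the share is also given by the response in Col-0. Among genes at least 2-fold lower after ABA in Col-0 the difference was above 0 for 79.1% of all genes and 17 of 18 peroxidase genes (94.4%). Among genes at least 2-fold higher after ABA in Col-0 it was above 0 for 59.8% of all genes and 7 of 8 peroxidase genes, and among genes within 2-fold for 50.4% and for 23 of 26 (88.5%). Of the 52 genes, 3 differed by 1 or more, where 1.35% of all genes did, and 0 by −1 or less, where 0.27% did. These were AT1G34510, AT1G05240 and *PRX2*, with differences of 1.13, 1.04 and 1.09. AT1G05240 and *PRX2* were under 1 FPKM in both ABA groups and passed the filter through the control groups. With 1 FPKM added their differences were 0.56 and 0.49, and only AT1G34510, at 1.09, remained past 1. AT1G34510 was at 40.5 FPKM in control Col-0 and 23.3 in control *aph-1*, and at 13.3 and 16.8 after ABA, so it was lower in *aph-1* without ABA and higher with it. The 5 genes with a difference below 0 included AT5G64110, at −0.58, which was at 10.9 (Col-0) and 15.8 FPKM (*aph-1*) in control seedlings, against 12.3 and 11.9 under ABA. AT2G34060 had a difference of −0.35 and AT3G28200 one of −0.25. With 1 value per group, whether a shift of this size exceeds the spread between libraries cannot be told.

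This difference equals the log2 ratio of the genotypes with ABA minus that without, so the same 4 values can be read as 2 genotype comparisons. Without ABA, 0 of the 52 genes were at least 2-fold lower or higher in *aph-1*, where 0.901% of all genes were lower and 0.143% higher. Nevertheless 43 of the 52 (82.7%) were below Col-0 in *aph-1*, where 56.8% of all genes were, with a median log2 ratio of −0.17 against −0.05. Without *DOX1* it was 42 of 51. The lowest was AT1G34510, at −0.79. Next were AT1G68850, at −0.67, AT5G19890, at −0.65, AT2G37130, at −0.62, and AT2G35380, at −0.59. These 5 hold genes that were higher after ABA in Col-0 (AT1G68850, AT2G35380) and genes that were lower (AT1G34510, AT5G19890, AT2G37130). On the other side, AT5G64110 had a log2 ratio of 0.53, AT2G18980 of 0.37, AT2G39040 of 0.27, *PRX71* of 0.25 and AT3G28200 of 0.25.

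With ABA, again 0 of the 52 genes were at least 2-fold apart, where 0.356% of all genes were higher and 0.270% lower in *aph-1*, but the balance of signs was the other way. Of the 52 genes, 37 were above Col-0 in *aph-1* and 15 below (28.8%, against 52.8% of all genes), with a median log2 ratio of 0.10 against −0.01. Without *DOX1* 37 were above and 14 below. The highest were AT2G39040, at 0.65, *PRX2*, at 0.64, AT3G49960, at 0.56, *PRX52*, at 0.55, and *PRX71*, at 0.53. This order depends on the added value, since AT2G39040 was at 0.759 and 1.25 FPKM in the ABA groups and *PRX2* at 0.178 and 0.333, Col-0 first. With 1 FPKM added their ratios were 0.36 and 0.18, below that of AT3G49960, at 0.55. AT3G49960 was at 57.2 FPKM in control Col-0, 56.9 in control *aph-1*, 27.9 in ABA-treated Col-0 and 41.3 in ABA-treated *aph-1*. The lowest were AT1G68850, at −0.43, AT2G35380, at −0.28, AT2G37130, at −0.26, AT2G34060, at −0.22, and AT5G06730, at −0.18. AT1G68850, AT2G35380 and AT2G37130 were thus among the 5 lowest in *aph-1* both without and with ABA, and no library is shared by those 2 comparisons. Across all 52 genes the 2 comparisons were only weakly related, with Pearson r = 0.285 and Spearman rho = 0.266. AT1G34510, the lowest without ABA, was at 0.34 with ABA.

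**Figure D3:**
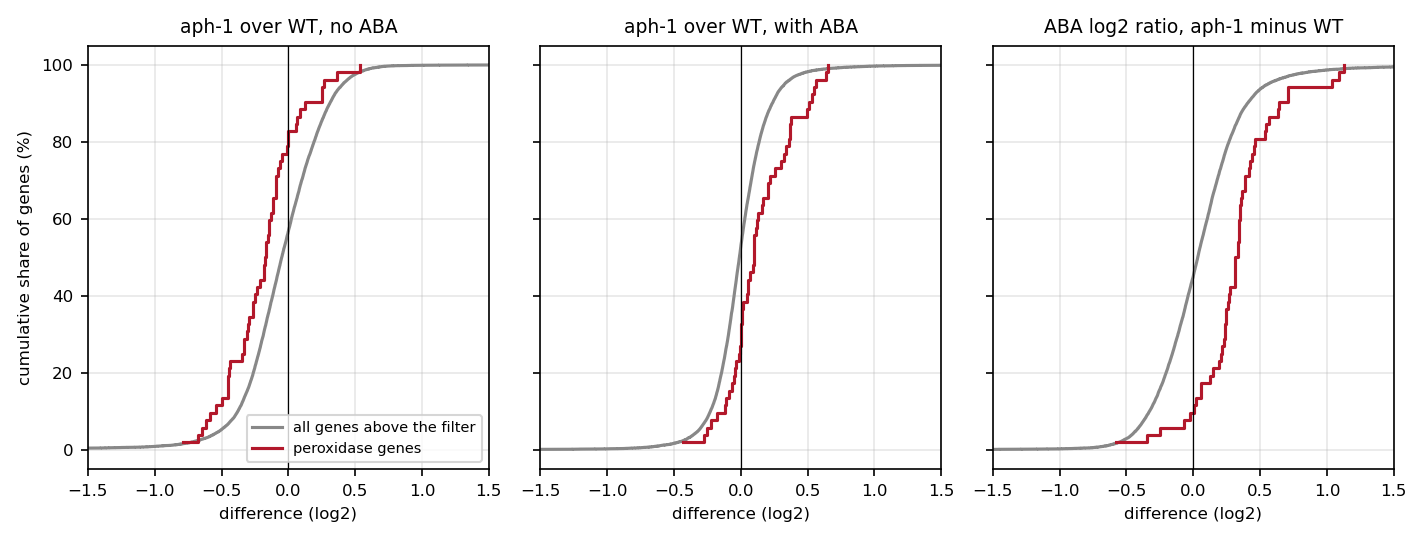
Cumulative share of genes (y axis, %) against a log2 difference (x axis, shown from −1.5 to 1.5) for the 52 peroxidase superfamily genes (red) and all genes above the filter (grey): *aph-1* over wild type without ABA, the same with ABA, and the difference of the ABA log2 ratios, *aph-1* minus wild type. The red line lies left of the grey line without ABA, right of it with ABA and farthest to the right in the third panel, where 90.4% of the red genes are above 0.

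The members are spread over the genome, with 13, 13, 8, 14 and 19 on chromosomes 1 to 5, and some stand in rows. By the gene order of the RefSeq annotation, 20 of the 67 genes form 11 pairs of members with no other protein-coding gene between them, and in 7 pairs both genes passed the filter. The ABA response in Col-0 was on the same side of the 2-fold thresholds in 3 of these 7 pairs and differed by a log2 ratio of 1 or more in 4, and no pair moved past 2-fold in opposite directions. *Prx37* and AT4G08780 on chromosome 4 were both lower, at −4.48 and −3.52, although *Prx37* had an 11.8-fold higher mean level. AT1G05240 and *PRX2* on chromosome 1 had close levels and ratios of −3.25 and −3.12, while the next gene, *RCI3*, was at −0.25. On chromosome 5, AT5G64100 was at −3.10, its neighbour AT5G64110 at 0.17 and the following *PRX71* at −1.01. AT4G37520 and AT4G37530, next to each other on chromosome 4, were at 0.22 and 1.63, and the level of AT4G37530 went from 26.0 to 80.6 FPKM. Neighbouring copies can be alike enough in sequence for reads to be assigned to the wrong one, and no source used here tells how such reads were counted, so values of neighbours, above all AT1G05240 and *PRX2*, are uncertain.

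**Figure D4:**
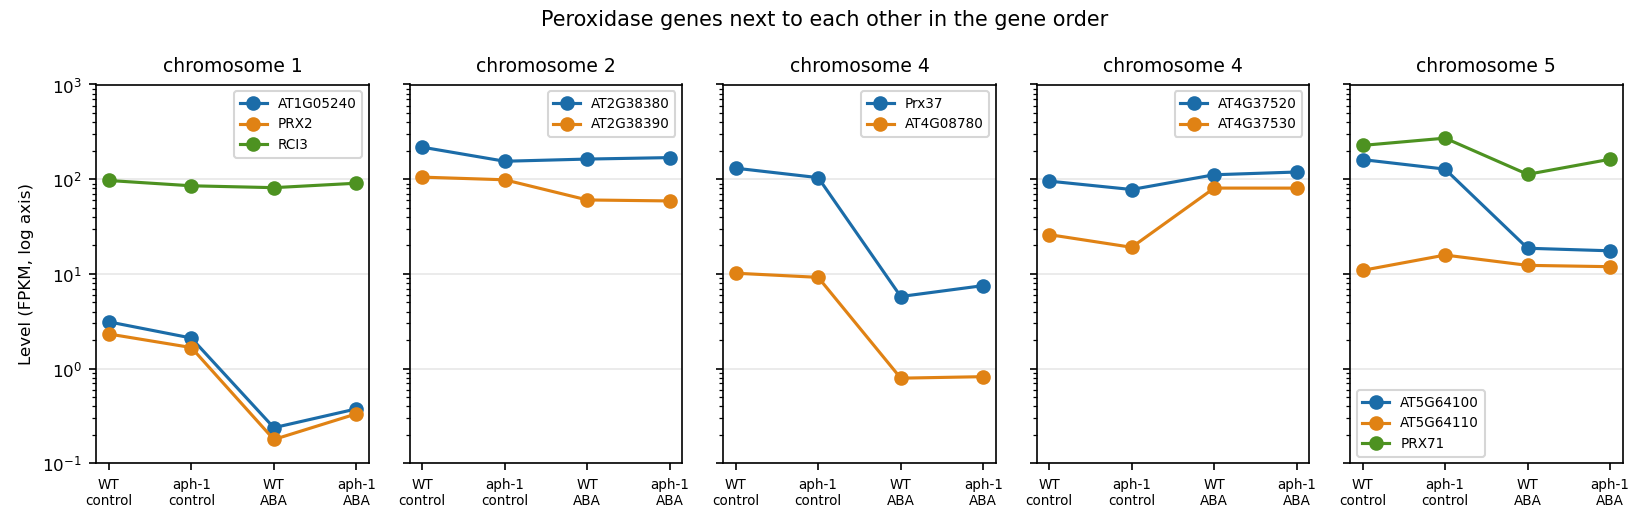
FPKM (log axis) in the 4 groups for the peroxidase superfamily genes that are next to each other in the gene order and passed the filter, 1 panel per row of genes; the lines only join the points of a gene. *Prx37* and AT4G08780 are both lower with ABA, whereas AT5G64100 goes from 161 to 18.7 FPKM in Col-0 beside AT5G64110, which stays between 10.9 and 15.8 FPKM.

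The phrase leaves out other class III peroxidases. By symbol, synonym or numbered description 5 more were found. *PRXCA* (AT3G49110) and *PRXCB* (AT3G49120), which act in the oxidative burst against pathogens, were at 170 and 402 FPKM in control Col-0 and at 26.9 and 1441 FPKM after ABA. With ABA *PRXCB* was above every one of the 67 genes, of which *PRXR1* was highest, at 1231 FPKM in Col-0. In ABA-treated *aph-1* *PRXCB* was at 1437 FPKM and *PRXR1* at 1239. The summed levels of the 67 genes given above leave out this rise and describe the genes of the phrase only. A sum with the genes outside the phrase was not computed. *RHS18* (AT5G22410) and *RHS19* (AT5G67400), genes of root hairs, were at 41.8 and 95.9 FPKM in control Col-0 and at 16.7 and 43.6 FPKM after ABA. The ABA log2 ratio was larger in *aph-1* than in Col-0 for all 5, where it was so for 55.0% of all genes. *PRXCA*, *RHS18* and *RHS19* were at least 2-fold lower after ABA in Col-0, and among all such genes the share was 79.1%. *PRXCA* and *PRXCB* are near copies, so the split of reads between them is uncertain. A further 4 genes described as peroxidase family protein, added after the table was seen, left the numbers of higher and lower genes at those reached with the 5.

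Genes that work with the peroxidases did not follow one direction. NADPH oxidases supply superoxide outside the cell. Of 4 such genes that passed the filter and that RefSeq pairs with their symbol, 2 were at least 2-fold lower after ABA in Col-0 and 1 higher. *RBOHD* (AT5G47910) was at 23.9 and 5.89 FPKM, *RBOHB* (AT1G09090) at 6.40 and 0.271 FPKM and *RBOHF* (AT1G64060) at 6.67 and 15.5 FPKM. AT1G19230 (*RBOHE*) and AT4G25090 (*RBOHG*) also passed the filter but were left out, since RefSeq lacks those symbols. AT1G19230 was past 2-fold upward, at 3.85 and 12.5 FPKM, and AT4G25090 downward, at 4.23 and 0.820 FPKM. Of 18 genes of monolignol synthesis, which makes the substrates that peroxidases polymerise, 4 were higher and 2 lower, and the median log2 ratio was 0.40. Of 3 lignin laccases, which oxidise the same substrates with oxygen, 1 was higher, *LAC17* (AT5G60020), at 7.94 and 18.2 FPKM. Of 8 Casparian strip genes, *CASP5* (AT5G15290) was higher, at 0.836 and 5.77 FPKM, and *CASP4* (AT5G06200) lower, at 3.03 and 0.598 FPKM. Of all genes above the filter, 11.5% were higher and 12.2% lower after ABA in Col-0. The Casparian strip genes, at 12.5% each way, and the lower monolignol genes, at 11.1%, were near these shares. These lists are short. The transcription factor gene *UPB1* (AT2G47270), whose product represses peroxidase genes in the root tip, was at 37.3 FPKM in control Col-0, 25.7 in control *aph-1*, 65.7 in ABA-treated Col-0 and 59.0 in ABA-treated *aph-1*. Its ABA log2 ratio was 0.81 in Col-0, below the threshold, and 1.20 in *aph-1*. It was the only one of 3 regulators past 2-fold with ABA, and only in *aph-1*. The oxidase, laccase and Casparian strip genes past 2-fold were the same in *aph-1* as in Col-0. Of all genes above the filter, 11.8% were higher and 10.1% lower after ABA in *aph-1*. Of the monolignol genes 4 were higher and 2 lower in *aph-1* too, but *C4H* (AT2G30490) was past 2-fold in *aph-1* only, at 1.18 against 0.83, and *CYP98A3* (AT2G40890) in Col-0 only, at 1.16 against 0.99. No gene of these lists above the filter was at least 2-fold apart between the genotypes, with or without ABA. Of all genes above the filter, at most 0.901% were in either direction.

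Cell type markers moved with the ABA groups. Of 6 root markers above the filter, 3 were at least 2-fold lower after ABA in Col-0 and 0 higher, where 12.2% of all genes were lower and 11.5% higher. The median log2 ratio of the root markers was −0.87. The summed level of all 8 was 77.9 FPKM in control Col-0, 82.0 in control *aph-1*, 42.1 in ABA-treated Col-0 and 46.1 in ABA-treated *aph-1*. Of 8 leaf markers 5 were lower and 0 higher, and their sum went from 17262 to 6068 FPKM in Col-0 and from 21218 to 8359 FPKM in *aph-1*. The part of these markers in the peroxidase results was not tested, and in whole seedlings fewer cells of a type and less RNA per cell cannot be told apart. The difference of the ABA log2 ratios between genotypes was above 0 for 2 of the 6 root markers and 4 of the 8 leaf markers. It was above 0 for 55.0% of all genes above the filter. Whether such short lists differ from that share was not tested.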

How the data were processed

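Whole seedlings were sequenced in 4 groups of 3 libraries (12 samples). The study's methods name Trimmomatic for trimming, HISAT for alignment to the TAIR10 genome, htseq-count for counting and edgeR for the authors' tests; the deposited sheet is named for Cuffdiff instead. The values used are the authors' deposited FPKM, 1 per gene and group. No header states this unit, which was inferred from the sheet name and the values. No source used here tells how libraries were combined. Values of low genes fall in steps, but each merges 3 libraries, so no reads were recovered, no count model was fitted and the depth is unknown. A further 8 columns hold the authors' log2 ratios and yes or no calls and were not used.

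Here, log2 ratios of FPKM with 0.1 added were computed over all 33559 genes, filtered at a mean of 1 FPKM over the 4 groups, and read at 2-fold. This filter uses all groups, so a low gene could pass through the group where it is high. Named genes are the 10 highest by mean, up to 10 largest rises and 10 largest falls past 2-fold with ABA in the wild type, the 5 most different each way between genotypes without and with ABA, the 3 most different each way in ABA ratio, and up to 4 neighbouring pairs. Genes fixed as lists are named as list members, and genes that changed class between genotypes were added after their values were seen. Members and lists were chosen with earlier results of these data known. The lists were 10 NADPH oxidases, 18 monolignol genes, 3 laccases, 9 Casparian strip genes, 3 peroxidase regulators (*UPB1*, *MYBH*, *MYB36*) and 8 root and 8 leaf markers; symbols that RefSeq does not pair with the identifier (3 oxidases, 1 Casparian strip gene) were left out. All 67 members were found in the RefSeq gene table of assembly TAIR10.1, used for names and gene order only. Alternatives were other added values, filters, fold thresholds, centring and memberships. Python 3.11.15, numpy 2.4.6, pandas 2.3.3 and matplotlib 3.10.9 were used. No sequences are given, as no sequence table was used here.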

Additional observations from a re-analysis of the deposited data

How the results depend on the processing

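Counts of higher and lower genes depend mainly on the fold threshold. At 3-fold, 11 of the 52 peroxidase genes were lower in ABA-treated Col-0 (5.66% of all genes) and 6 were higher in ABA-treated *aph-1* (6.76%). At 1.5-fold, 29 were lower in ABA-treated Col-0 (23.1% of all genes). At that threshold 5 were lower in control *aph-1* than in control Col-0 (AT1G34510, AT1G68850, AT5G19890, AT2G37130 and AT2G35380; 3.55% of all genes) and 2 were higher in ABA-treated *aph-1* than in ABA-treated Col-0 (*PRX2* and AT2G39040; 1.29%). With a mean of at least 5 FPKM, 8 of 43 genes were lower in ABA-treated *aph-1* (8.004% of all genes). These changes follow from the thresholds themselves. *PRX2* and AT2G39040 were at low levels with ABA, and with 1 FPKM added neither reached 1.5-fold between the ABA-treated groups, at log2 ratios of 0.18 and 0.36. The other counts of genes at least 2-fold higher or lower stayed within 1.5 times under no added value, 1 FPKM added, a looser or no filter, centring on the median of all genes and the wider or narrower memberships, of which the one without *DOX1* and the one with peroxidase family proteins were chosen after seeing the data. The number of genes with a larger ABA log2 ratio in *aph-1* was 45 of 52 after centring (50.0% of all genes), 39 of 43 at the stricter filter (57.1%) and 56 of 65 with no filter (54.0%), which left 9 genes below 0. The 3 genes with a difference of 1 or more became 1 with 1 FPKM added. The alternative that leaves out near-identical proteins was not run, since no protein sequences were used. Leaving out a replicate was not possible, since each group has a single value. No paired analysis was possible because the columns carry no replicate numbers.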

Other observations

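The 15 peroxidase genes below the filter were at most at 1.17 FPKM in any group, the level of AT5G24070 in control Col-0, which was at 0.634 FPKM in control *aph-1* with 0.294 and 0.448 FPKM in the treated groups. *PER36* (AT3G50990), known for its part in the release of seed mucilage, was at 0.0140 (Col-0) and 0.0314 FPKM (*aph-1*) in control seedlings, against 0.401 and 0.192 under ABA. AT4G17690 was at 0.0197 FPKM in control Col-0, listed at 0 in control *aph-1*, then 0.700 and 0.559 FPKM under treatment. AT3G03670 was at 0.827 (Col-0) and 0.591 FPKM (*aph-1*) in control seedlings, against 0.0319 and 0.0124 under ABA. Such values may rest on few reads, and their depth is unknown.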
